A study of Mus musculus with 8 samples.

Results

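The genes described here encode matrix metalloproteinases (Mmp), their tissue inhibitors (Timp), the membrane-bound ADAM proteases (Adam), the secreted ADAMTS proteases (Adamts) and the ADAMTS-like proteins (Adamtsl). They were chosen by symbol alone, as every gene whose symbol is 1 of these 5 family names followed by a number and at most 1 letter. The rule found 84 of the 23420 genes in the table: 23 Mmp, 4 Timp, 33 Adam, 19 Adamts and 5 Adamtsl genes. The RNA came from head mesenchyme of C57BL/6 mouse embryos at E12.5, all of them wild type, and there was no treatment group. One region was the early migrating (EMM) and the other the supraorbital (SOM) mesenchyme, each with 4 samples, and each sample pooled tissue from 4 to 5 embryos. Tissue from apical and basolateral head areas was loosened with dispase (3 U/ml for 10 min at 37 C), and brain and surface ectoderm were taken off. Both regions went through the same dispase step, and whether EMM and SOM pools came from the same embryos is not given. The comparison asks which genes differ between the 2 regions.

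MMPs are zinc proteases that are made as inactive precursors and cut collagens, other matrix proteins and growth factor carriers, and TIMPs block them by binding the active site. ADAMs are anchored in the membrane and mostly shed the outer parts of other membrane proteins, ADAMTS enzymes cut proteoglycans and process procollagens, and ADAMTS-like proteins keep the matrix-binding parts of ADAMTS enzymes without the protease. In the embryonic head, the mesenchyme between brain and surface ectoderm is known to give rise to skull bone, dermis and meninges, and it remodels its matrix as it migrates and differentiates.

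Library depth was 12703844 to 22440232 reads in genes in EMM and 16765416 to 33694331 in SOM. A level is given in normalized counts, which are reads divided by 1 size factor per library, and 3 reads were worth 1.91 to 5.42 normalized counts. The regions were separated by the first principal component, with 85.4% of the variance. The head mesenchyme markers were detected in every library, 8 of 8 being tested. Pools of 1 group differed by 3.72 to 19 times sampling noise (chi-square per degree of freedom), so none was a copy of another.

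Differences below are SOM minus EMM on the log2(normalized count + 1) scale with their standard error, so a negative value means a higher level in EMM. A gene was tested where at least 4 libraries reached 10 normalized counts, and called where the adjusted p of limma was below 0.05. Of the 84 genes, 51 were tested and 33 fell below that filter. All tested members other than Adamts18 and Adam28 reached 10 normalized counts in all 8 libraries.

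Most of the tested proteases and inhibitors were higher in EMM. Of the 51 tested members, 31 (60.8%) were called higher in EMM, against 36.1% of all 14249 genes tested, and 11 (21.6%) were called higher in SOM, against 36.0%. A called difference of at least 2-fold was seen in 11 members toward EMM (21.6%, against 11.0% of all genes tested) and in 4 toward SOM (7.84%, against 5.19%). The libraries of the 2 regions did not overlap in 40 members (78.4%, against 66.1% of all genes tested). The median difference was -0.58 over the tested members and 0.01 over all genes tested. Together the 84 genes took 0.423, 0.416, 0.399 and 0.416 percent of the reads in EMM pools 1 to 4 and 0.284, 0.28, 0.293 and 0.297 percent in SOM pools 1 to 4. Every EMM pool lay above every SOM pool in that share. In bulk RNA, fewer cells of a type and less RNA per cell cannot be told apart. In the authors' deposited table, 32 members were called higher in EMM and 11 higher in SOM, and the 1 call that differed was that of Adam3, which was not tested here.

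**Figure D1:**
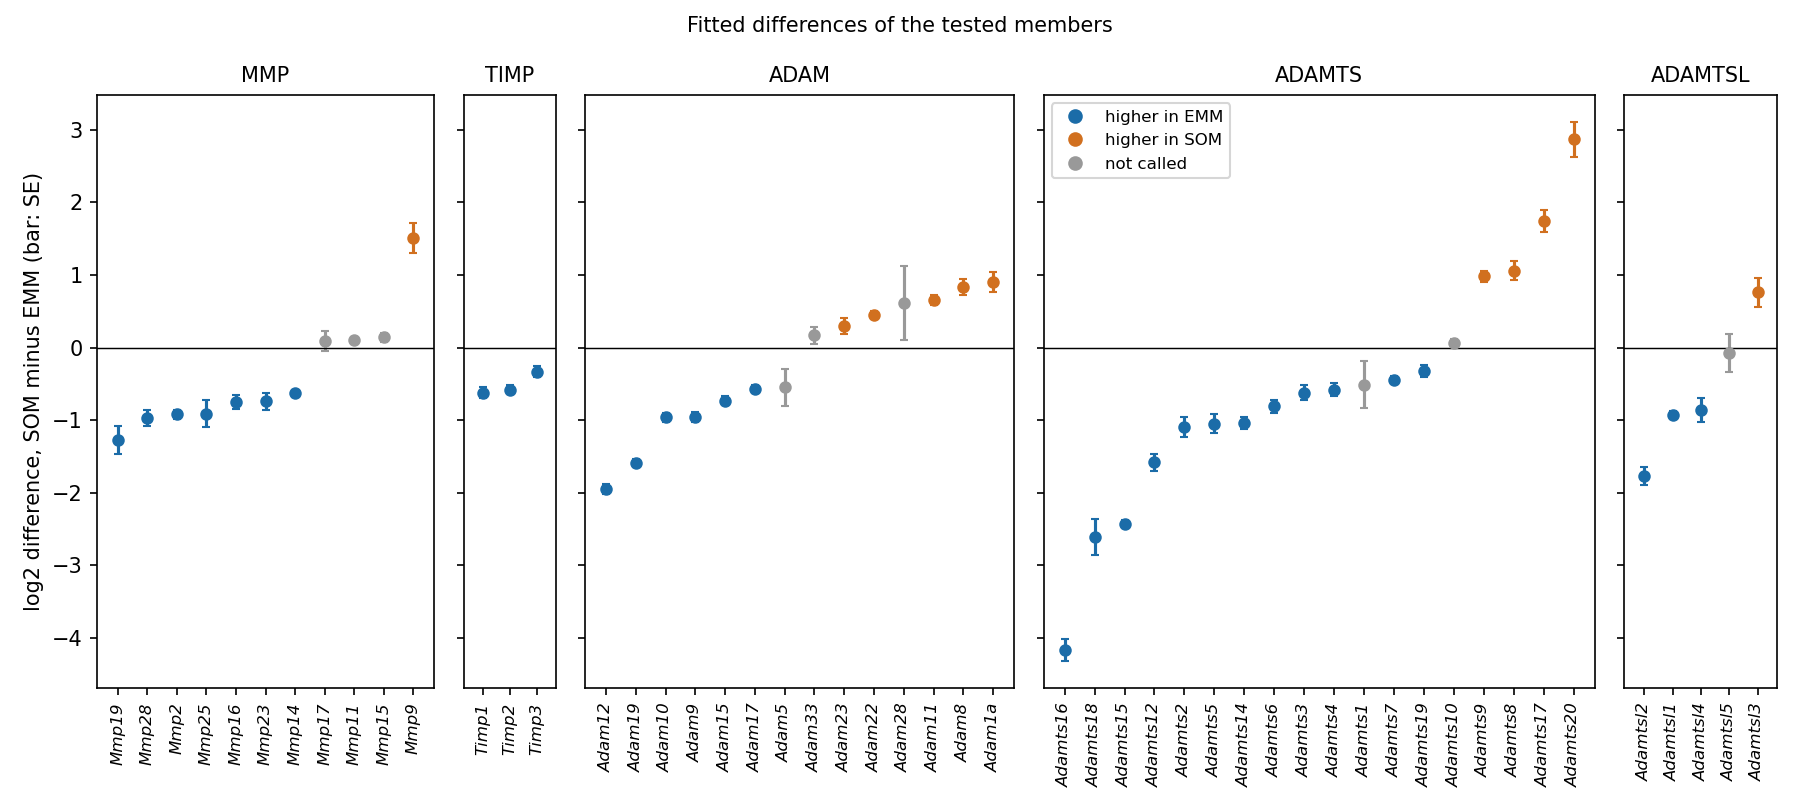
Fitted log2 difference (SOM minus EMM, y axis) of each tested member (x axis), with 1 panel per family, bars of 1 standard error, and colours for members called higher in EMM, called higher in SOM or not called. Members called higher in EMM reach -4.17 (Adamts16) and those called higher in SOM reach 2.87 (Adamts20).

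Among the MMPs, both gelatinases differed between the regions, and in opposite directions. Mmp2, gelatinase A, which cuts denatured collagen and basement membrane collagen, had the highest level per kilobase of exon of all members (chr8:92827291-92853420, plus strand, GRCm38). Mmp2 stood at 14331, 14123, 13030 and 14555 normalized counts in EMM pools 1 to 4 and 7554, 6556, 7610 and 7906 in SOM pools 1 to 4. The lowest EMM pool was well above the highest SOM pool. Its mean was 14010 ± 677 in EMM and 7407 ± 588 in SOM (SD, n = 4), a difference of -0.92 ± 0.06 (limma, Benjamini-Hochberg adjusted p = 7.92e-10).

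Mmp9, gelatinase B, was far lower in level and higher in SOM (chr2:164940780-164955850, plus strand). Mmp9 stood at 58.3, 70.5, 46 and 51.2 normalized counts in EMM pools 1 to 4 and 189, 111, 226 and 140 in SOM pools 1 to 4. SOM pools varied by more than the EMM pools did, yet none fell into the EMM range. The mean was 2.94-fold higher in SOM, a difference of 1.51 ± 0.21 (limma, Benjamini-Hochberg adjusted p = 1.69e-05). Mmp9 is widely known from osteoclasts and leukocytes, whose part in its level was not tested. The summed level of the 8 osteoclast markers was 4385 to 4828 normalized counts in EMM and 2065 to 2443 in SOM, with 2 of the 3 tested (Acp5 and Ctsk) higher in EMM. The other 5 osteoclast markers, Calcr, Ocstamp, Dcstamp, Oscar and Atp6v0d2, were below the filter, and Dcstamp and Atp6v0d2 were at 0 in SOM. All 11 macrophage markers tested were higher in EMM (100%, against 36.1% of all genes tested). Their sum was 11533 to 14379 in EMM and 2854 to 3229 in SOM.

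Of the 7 membrane-anchored MMPs, 6 were tested, and 4 of these were called higher in EMM (66.7%, against 36.1% of all genes tested). Mmp14, the membrane-type MMP that activates the Mmp2 precursor at the cell surface, was second in level among the MMPs. Its level was 12606 ± 498 in EMM and 8137 ± 519 in SOM (SD, n = 4), a difference of -0.63 ± 0.05 (limma, Benjamini-Hochberg adjusted p = 1.82e-08). Mmp16, a close relative of Mmp14, differed by -0.75 ± 0.09 (limma, Benjamini-Hochberg adjusted p = 7.75e-06). Mmp23, which is released from its membrane anchor, and Mmp25, which is held by a lipid anchor, differed by -0.74 and -0.91. Mmp15 and the lipid-anchored Mmp17 were not called, at 0.14 ± 0.06 (limma, Benjamini-Hochberg adjusted p = 0.0585) and 0.09 ± 0.14 (limma, Benjamini-Hochberg adjusted p = 0.601). Mmp15 was called higher in SOM, by 0.14 to 0.18, in 6 alternatives (adjusted p of 0.0207 to 0.0462), which were TMM and upper quartile scaling, edgeR, the replicate block, and limma without EMM replicate 3 or SOM replicate 1. In the other 11 alternatives its adjusted p was 0.0555 to 0.17.

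Mmp11, stromelysin-3, which is known from mesenchyme beside remodelling epithelium, had similar levels in both regions, 3058 ± 202 in EMM and 3263 ± 119 in SOM (SD, n = 4), and was not called at 0.10 ± 0.05 (limma, Benjamini-Hochberg adjusted p = 0.122). Its libraries overlapped, and under upper quartile scaling it was called at 0.13 toward SOM (limma, adjusted p = 0.0376; 0.0586 to 0.4 in the other alternatives). Mmp28, a secreted MMP known as epilysin, was higher in EMM at 348 ± 27.9 in EMM and 178 ± 24.7 in SOM (SD, n = 4), a difference of -0.97 ± 0.11 (limma, Benjamini-Hochberg adjusted p = 4.74e-07). Mmp19, known from vessels and skin, was higher in EMM at a low level, 56.8 ± 11.6 in EMM and 22.7 ± 2.23 in SOM (SD, n = 4), a difference of -1.27 ± 0.19 (limma, Benjamini-Hochberg adjusted p = 2.14e-05). Per kilobase of exon, the leading MMPs in EMM were Mmp2 at 4156, Mmp14 at 2115 and Mmp11 at 1101 normalized counts, and in SOM they were Mmp2 at 2197, Mmp14 at 1365 and Mmp11 at 1175. The order of these 3 genes was the same in the 2 regions.

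**Figure D2:**
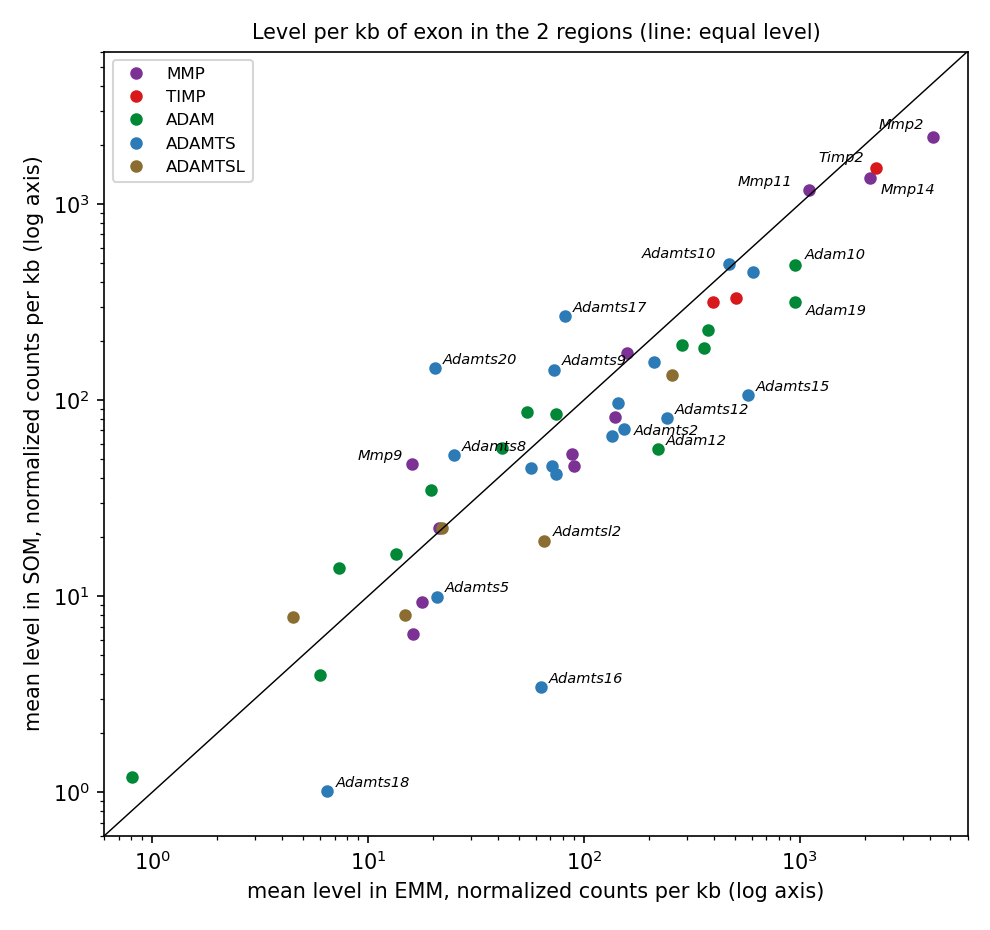
Mean level of each tested member in EMM (x axis) and SOM (y axis), in normalized counts per kilobase of exon on log axes, coloured by family, with a line at equal levels. Mmp2 has the highest level in both regions, and Adamts20, Adamts17 and Mmp9 lie above the line while Adamts16, Adamts15 and Adam12 lie below it.

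All 3 tested inhibitors were higher in EMM (100%, against 36.1% of all genes tested), by less than 2-fold. Timp2, which blocks MMPs and also bridges the Mmp2 precursor to Mmp14 at the cell surface, was the leading inhibitor (chr11:118301069-118355740, minus strand). Timp2 stood at 9386, 9377, 8054 and 8537 normalized counts in EMM pools 1 to 4 and 5874, 5521, 6087 and 6197 in SOM pools 1 to 4. The groups did not overlap, and the difference was -0.58 ± 0.06 (limma, Benjamini-Hochberg adjusted p = 1.54e-07).

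Timp3, which is bound to the matrix and also blocks ADAM and ADAMTS enzymes, stood at 3379, 2785, 3421 and 3344 normalized counts in EMM pools 1 to 4 and 2721, 2367, 2450 and 2750 in SOM pools 1 to 4. EMM pool 2 was the lowest EMM pool and lay just above the highest SOM pool. Its difference was -0.33 ± 0.07 (limma, Benjamini-Hochberg adjusted p = 0.000711). Timp3 lies within Syn3 on the opposite strand and shares 1733 exonic bases with it. Timp1, a secreted inhibitor encoded on chromosome X, stood at 457, 412, 433 and 505 normalized counts in EMM pools 1 to 4 and 291, 279, 324 and 282 in SOM pools 1 to 4. It was higher in every EMM pool, with a difference of -0.62 ± 0.08 (limma, Benjamini-Hochberg adjusted p = 5.71e-06). Timp4 had 1 read in EMM and 6 reads in SOM in all and was not tested, its level being 0, 0, 0 and 1.35 normalized counts in EMM and 1.26, 1.4, 1.91 and 0 in SOM.

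Proteases and inhibitors were lower together in SOM, and their summed ratio overlapped between the regions. The summed MMP level per kilobase was 7871, 8055, 7571 and 8184 in EMM pools 1 to 4 and 5194, 4819, 5400 and 5308 in SOM pools 1 to 4. The summed TIMP level per kilobase was 3339, 3213, 2975 and 3171 in EMM and 2170, 2023, 2229 and 2246 in SOM. The ratio of the sums was 2.36, 2.51, 2.54 and 2.58 in EMM and 2.39, 2.38, 2.42 and 2.36 in SOM. The overlap of this ratio came from EMM pool 1 alone, and EMM pools 2 to 4 lay above every SOM pool. Within the Mmp14, Timp2 and Mmp2 trio, the ratio of Mmp14 to Timp2 per kilobase also overlapped, at 0.842, 0.915, 0.997 and 0.99 in EMM and 0.885, 0.887, 0.927 and 0.893 in SOM. The ratio of Mmp2 to Timp2 did not overlap, at 1.76, 1.74, 1.87 and 1.97 in EMM and 1.49, 1.37, 1.44 and 1.47 in SOM. These ratios are given as a description, with no test, and they concern RNA, not active enzyme.

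**Figure D3:**
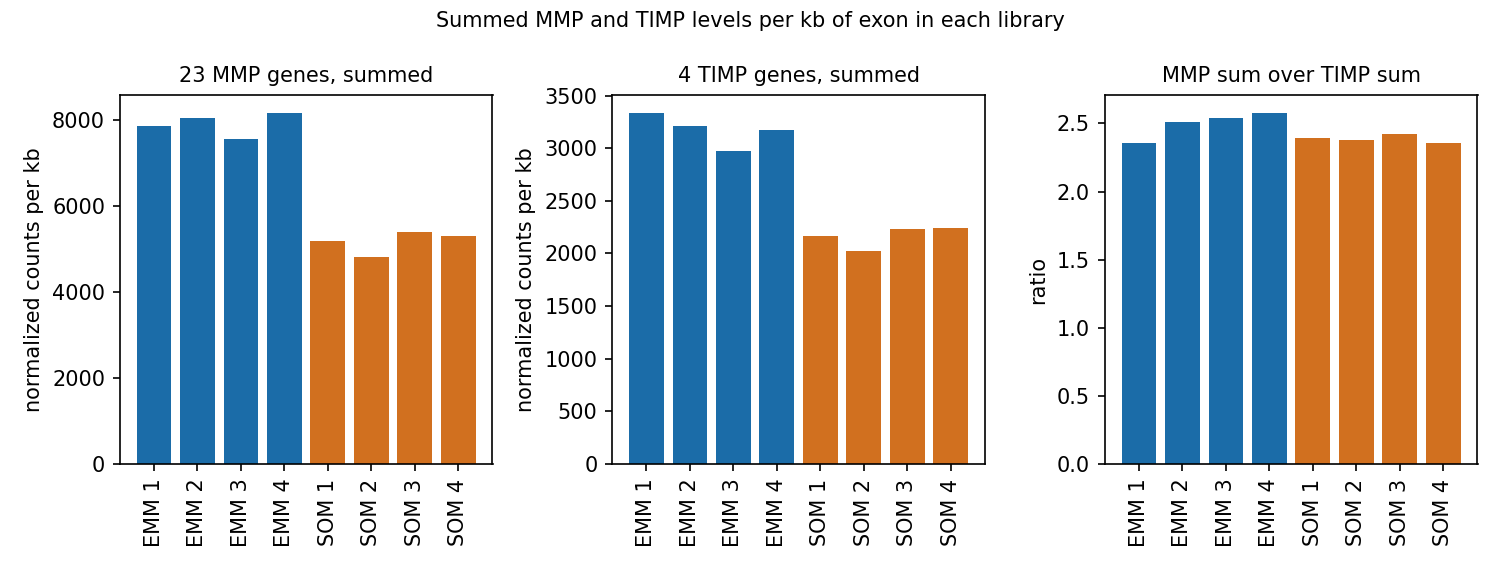
Summed MMP level, summed TIMP level (both in normalized counts per kilobase of exon) and their ratio (y axes), with 1 bar for each pool of EMM (blue) and SOM (orange). Both sums are higher in the 4 EMM pools than in the 4 SOM pools, while the ratio runs from 2.36 to 2.58 in EMM and from 2.36 to 2.42 in SOM.

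Of the 14 tested ADAM genes, 6 were higher in EMM, 5 were higher in SOM and 3 were not called. These shares, 42.9% and 35.7%, were near the 36.1% and 36.0% of all genes tested. The 6 ADAM genes higher in EMM all encode active proteases. Adam10, the sheddase that starts Notch cleavage and cuts cadherins, stood at 4975, 4712, 4488 and 4479 normalized counts in EMM pools 1 to 4 and 2332, 2596, 2109 and 2559 in SOM pools 1 to 4. The EMM pools were all well above the SOM pools, with a difference of -0.96 ± 0.06 (limma, Benjamini-Hochberg adjusted p = 1.68e-09). Adam17, the sheddase of tumour necrosis factor and of several EGF receptor ligands, was at 2030 ± 81.9 in EMM and 1368 ± 52.7 in SOM (SD, n = 4), a difference of -0.57 ± 0.05 (limma, Benjamini-Hochberg adjusted p = 5.26e-08). The ratio of Adam10 to Adam17 per kilobase was 3.47, 3.24, 3.35 and 3.32 in EMM and 2.57, 2.67, 2.32 and 2.63 in SOM, without overlap.

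Meltrins alpha and beta had the largest differences among the tested ADAMs. Adam12, meltrin alpha, known from muscle, fat and bone precursors, lies at chr7:133883199-134232146, minus strand. It stood at 2676, 2203, 2138 and 2283 normalized counts in EMM pools 1 to 4 and 607, 579, 604 and 596 in SOM pools 1 to 4. SOM pools were tightly grouped and far below EMM, a 3.9-fold higher mean in EMM and a difference of -1.95 ± 0.07 (limma, Benjamini-Hochberg adjusted p = 4.06e-13). Adam19, meltrin beta, known from neuregulin shedding and from heart cushions, stood at 6773, 6245, 6814 and 7235 normalized counts in EMM pools 1 to 4 and 2153, 2154, 2274 and 2389 in SOM pools 1 to 4. Again no pool overlapped, with a 3.02-fold higher mean in EMM and a difference of -1.59 ± 0.05 (limma, Benjamini-Hochberg adjusted p = 4.26e-13). Adam19 shares 587 and 480 exonic bases with the antisense genes Gm16033 and Gm16034. Per kilobase, Adam19 at 951 and Adam10 at 949 were level with each other in EMM, whereas in SOM Adam10 at 488 exceeded Adam19 at 315. Adam9 and Adam15, both widely expressed proteases, were also higher in EMM, with differences of -0.96 and -0.73.

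The ADAMs higher in SOM differed by less than 2-fold. Adam11, Adam22 and Adam23 lack the catalytic zinc site and act as cell surface receptors, best known in neurons. Adam11 was 311 ± 8.62 in EMM and 491 ± 11.4 in SOM (SD, n = 4), a difference of 0.66 ± 0.07 (limma, Benjamini-Hochberg adjusted p = 2.6e-07). Adam22 was 601 ± 27.7 in EMM and 823 ± 51.4 in SOM (SD, n = 4), a difference of 0.45 ± 0.06 (limma, Benjamini-Hochberg adjusted p = 9.6e-06). Adam23 overlapped between the groups, and its difference of 0.30 ± 0.11 (limma, Benjamini-Hochberg adjusted p = 0.0239) lost its call without EMM replicate 1 (0.27, adjusted p = 0.0589), EMM replicate 2 (0.22, adjusted p = 0.0878) or SOM replicate 1 (0.23, adjusted p = 0.0916). Its adjusted p was 0.00414 to 0.0411 in the other alternatives. Of the 9 neuron markers tested, 5 were higher in SOM (55.6%, against 36.0% of all genes tested) and 3 in EMM (33.3%, against 36.1%). The summed level of the neuron markers was 1918 to 2409 in EMM and 4678 to 5093 in SOM. For neural crest glia, 6 of 7 markers (85.7%) were higher in SOM, and Foxd3 was at 0 in EMM. The glia sums were 209 to 237 in EMM and 1020 to 1172 in SOM. The part of these cells in the 3 ADAM levels was not tested.

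Adam8, a protease known from leukocytes and osteoclasts, was 90.3 ± 6.23 in EMM and 162 ± 13 in SOM (SD, n = 4), higher in SOM by 0.83 ± 0.11 (limma, Benjamini-Hochberg adjusted p = 6.7e-06). The part of leukocytes and osteoclasts in this level was not tested. Adam1a, known from sperm, was called higher in SOM by 0.90, but it shares 4779 exonic bases with Gm42878 and 1805 with Mapkapk5 on its own strand, so its value is uncertain. Adam33 was not called (0.17), and without SOM replicate 4 it was called at 0.28 toward SOM (limma, adjusted p = 0.0274; 0.14 to 0.659 in the other alternatives). Adam5 and Adam28, at low levels, were not called (-0.55 and 0.62), and Adam5 was called at -0.69 without EMM replicate 3 (limma, adjusted p = 0.0315; 0.0545 to 0.183 in the other alternatives). Adam8, Adam15, Adam17, Adamts4, Mmp11, Mmp19 and Mmp28 share between 46 and 1263 exonic bases with a gene on the opposite strand, and whether the counting used strand is not given.

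The ADAMTS family held the largest differences in both directions. Of 18 tested genes, 12 (66.7%) were higher in EMM, 4 (22.2%) were higher in SOM and 2 were not called. Of all genes tested, 36.1% were higher in EMM and 36.0% in SOM. At least 2-fold differences were called in 7 toward EMM (38.9%, against 11.0% of all genes tested) and 3 toward SOM (16.7%, against 5.19%). Adamts16, a protease known from kidney and gonad, lies at chr13:70727802-70841811, minus strand. It stood at 436, 465, 420 and 401 normalized counts in EMM pools 1 to 4 and 21.4, 18.9, 21.7 and 31.4 in SOM pools 1 to 4. The SOM pools were low and the EMM pools all far above them, and EMM was 18.4-fold higher on the mean, a difference of -4.17 ± 0.15 (limma, Benjamini-Hochberg adjusted p = 7.52e-13). Its closest relative Adamts18 was lower in level with the same direction, 74.6, 52.4, 77.4 and 59.2 normalized counts in EMM and 11.3, 11.2, 5.74 and 12.7 in SOM. Adamts18 differed by -2.61 ± 0.25 (limma, Benjamini-Hochberg adjusted p = 1.19e-07).

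Of the 7 proteoglycan-cleaving ADAMTS enzymes, which cut versican and aggrecan, 3 were higher in EMM, 3 were higher in SOM and 1 was not called. The share each way was 42.9%, near the 36.1% (EMM) and 36.0% (SOM) of all genes tested. Adamts15 stood at 5755, 6205, 5799 and 6024 normalized counts in EMM pools 1 to 4 and 1001, 1115, 1171 and 1117 in SOM pools 1 to 4. All EMM pools lay above all SOM pools, with a 5.4-fold higher mean and a difference of -2.43 ± 0.05 (limma, Benjamini-Hochberg adjusted p = 4.01e-15). Adamts20, the gene mutated in belted mice, whose loss affects pigment cell spread, went the other way (chr15:94270163-94465418, minus strand). It stood at 150, 266, 122 and 197 normalized counts in EMM pools 1 to 4 and 1228, 1507, 1209 and 1259 in SOM pools 1 to 4. EMM pools varied about their mean but stayed far below SOM, which was 7.08-fold higher, a difference of 2.87 ± 0.24 (limma, Benjamini-Hochberg adjusted p = 1.74e-05). Per kilobase, the ratio of Adamts15 to Adamts20 was 33.3, 20.3, 41.2 and 26.6 in EMM pools 1 to 4 and 0.708, 0.642, 0.841 and 0.771 in SOM pools 1 to 4. The order of the 2 genes was thus reversed between the regions in every pool.

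Adamts9, the closest relative of Adamts20, was also higher in SOM, at 1091 ± 104 in EMM and 2155 ± 133 in SOM (SD, n = 4), a difference of 0.98 ± 0.07 (limma, Benjamini-Hochberg adjusted p = 2.35e-09). Adamts8 stood at 107, 127, 96.2 and 131 normalized counts in EMM pools 1 to 4 and 233, 192, 286 and 256 in SOM pools 1 to 4. No SOM pool fell into the EMM range, and the difference was 1.06 ± 0.13 (limma, Benjamini-Hochberg adjusted p = 2.62e-06). Adamts8 shares 489 exonic bases and Adamts9 shares 1381 and 424 with genes on the opposite strand. Adamts8 lies 20.1 kb from Adamts15 on chromosome 9 (chr9:30942562-30963838, plus strand, beside chr9:30899155-30922452, minus strand), so these neighbours, read in opposite directions along the chromosome, differed in opposite directions.

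Adamts5, the main aggrecanase of mouse cartilage, was low in level and higher in EMM. It stood at 277, 228, 195 and 198 normalized counts in EMM pools 1 to 4 and 106, 118, 91.3 and 115 in SOM pools 1 to 4. The groups did not overlap, and the difference was -1.05 ± 0.13 (limma, Benjamini-Hochberg adjusted p = 1.92e-06). Adamts4, the other classical aggrecanase, was higher in EMM at 692 ± 43 in EMM and 466 ± 60.1 in SOM (SD, n = 4), a difference of -0.58 ± 0.09 (limma, Benjamini-Hochberg adjusted p = 1.7e-05). Adamts1, which is induced by many signals, was not called, at -0.51 ± 0.32 (limma, Benjamini-Hochberg adjusted p = 0.191). Its level was 913, 981, 1371 and 1205 normalized counts in EMM and 591, 647, 657 and 1422 in SOM. SOM pool 4 was far above the other SOM pools and above all EMM pools, and without it the difference was -0.81 (limma, adjusted p = 0.000587). Leaving out EMM replicates 2 and 3 as well gave -0.73 (limma, adjusted p = 7.54e-05), and the other alternatives gave adjusted p of 0.128 to 0.364. The summed level of 8 immediate early genes, a list chosen after the values were seen (Fos, Fosb, Jun, Junb, Egr1, Ier2, Atf3 and Dusp1), was 13820, 25526, 28343 and 22000 in EMM and 8997, 19004, 16821 and 38847 in SOM. The highest value was again that of SOM pool 4, and its part in the Adamts1 level was not tested.

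The 3 procollagen N-propeptidases, which trim fibrillar procollagens so that fibrils can form, were all higher in EMM (100%, against 36.1% of all genes tested). Adamts2 stood at 1580, 1695, 1078 and 1356 normalized counts in EMM pools 1 to 4 and 672, 579, 756 and 646 in SOM pools 1 to 4. EMM pools spread widely, with the lowest still above SOM, a 2.15-fold higher mean and a difference of -1.09 ± 0.14 (limma, Benjamini-Hochberg adjusted p = 0.000109). Adamts14 stood at 758, 652, 684 and 708 normalized counts in EMM pools 1 to 4 and 344, 309, 391 and 325 in SOM pools 1 to 4. It was about as much higher in EMM, with a difference of -1.04 ± 0.08 (limma, Benjamini-Hochberg adjusted p = 9.55e-09). Adamts3, at 387 ± 27.6 in EMM and 251 ± 29.7 in SOM (SD, n = 4), differed by -0.62 ± 0.10 (limma, Benjamini-Hochberg adjusted p = 2.01e-05). Of the 4 fibrillar collagen genes in the list of substrates and partners, Col1a1, Col1a2 and Col3a1 were higher in EMM, with differences of -1.77, -1.66 and -1.18. Col2a1, the cartilage collagen, was higher in SOM, at 24742 ± 816 in EMM and 38532 ± 8389 in SOM (SD, n = 4), a difference of 0.61. Col1a1, Col1a2 and Col2a1 were outside the rule for named genes and were chosen after their values were seen.

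Of the other 8 ADAMTS genes tested, 6 were higher in EMM (75%, against 36.1% of all genes tested). Adamts12, which cuts cartilage oligomeric matrix protein, stood at 3064, 2447, 2411 and 2638 normalized counts in EMM pools 1 to 4 and 840, 820, 775 and 1113 in SOM pools 1 to 4. SOM stayed below EMM in every pool, with a 2.98-fold higher mean in EMM and a difference of -1.58 ± 0.12 (limma, Benjamini-Hochberg adjusted p = 1.11e-06). Adamts7, its close relative, was the leading ADAMTS gene per kilobase over all libraries (528). Adamts7 stood at 3862, 3752, 3784 and 3867 normalized counts in EMM pools 1 to 4 and 2579, 2803, 2969 and 2928 in SOM pools 1 to 4. The groups did not overlap, but the difference was modest at -0.44 ± 0.05 (limma, Benjamini-Hochberg adjusted p = 9.53e-07), and 122 exonic bases are shared with Tbc1d2b. Adamts6, which acts on microfibrils, differed by -0.81. Adamts10, another microfibril-related protease, was not called at 0.06 ± 0.06 (limma, Benjamini-Hochberg adjusted p = 0.313), with 3880 ± 180 in EMM and 4058 ± 289 in SOM (SD, n = 4). Per kilobase it was below Adamts7 in EMM (470 and 608) and above it in SOM (492 and 449). Adamts19 overlapped between the groups and was called at -0.32 ± 0.08 (limma, Benjamini-Hochberg adjusted p = 0.00264), and it lost the call when EMM pools 2 and 3 and SOM pool 4 were left out together (-0.22, adjusted p = 0.0549; 0.0005 to 0.0106 in the other alternatives).

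Adamts17, linked to microfibrils and to short stature and eye defects when lost, was the one of these 8 that was higher in SOM (chr7:66839735-67153171, plus strand). It stood at 683, 793, 460 and 596 normalized counts in EMM pools 1 to 4 and 2020, 2190, 2051 and 2047 in SOM pools 1 to 4. SOM pools were tightly grouped above every EMM pool, with a 3.28-fold higher mean and a difference of 1.74 ± 0.15 (limma, Benjamini-Hochberg adjusted p = 9.71e-06). Among the 5 ADAMTS-like genes, 3 (60%) were higher in EMM, 1 (20%) was higher in SOM and 1 was not called. Of all genes tested, 36.1% were higher in EMM and 36.0% in SOM. Adamtsl1, known as punctin, led this family and stood at 3417, 2917, 3360 and 3455 normalized counts in EMM pools 1 to 4 and 1587, 1715, 1788 and 1787 in SOM pools 1 to 4. Its groups did not overlap, with a difference of -0.93 ± 0.06 (limma, Benjamini-Hochberg adjusted p = 1.1e-09). Adamtsl2, which binds fibrillin microfibrils, stood at 474, 602, 470 and 548 normalized counts in EMM pools 1 to 4 and 175, 120, 151 and 168 in SOM pools 1 to 4. EMM was 3.41-fold higher, a difference of -1.77 ± 0.12 (limma, Benjamini-Hochberg adjusted p = 3.28e-09).

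Adamtsl4, linked to the fibres that hold the lens, was higher in EMM with a difference of -0.86, and Adamtsl3 was higher in SOM with a difference of 0.76, both at low levels. Adamtsl5 was not called at -0.07 ± 0.26 (limma, Benjamini-Hochberg adjusted p = 0.808), and its SOM pools spread from 69.5 to 165 normalized counts.

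**Figure D4:**
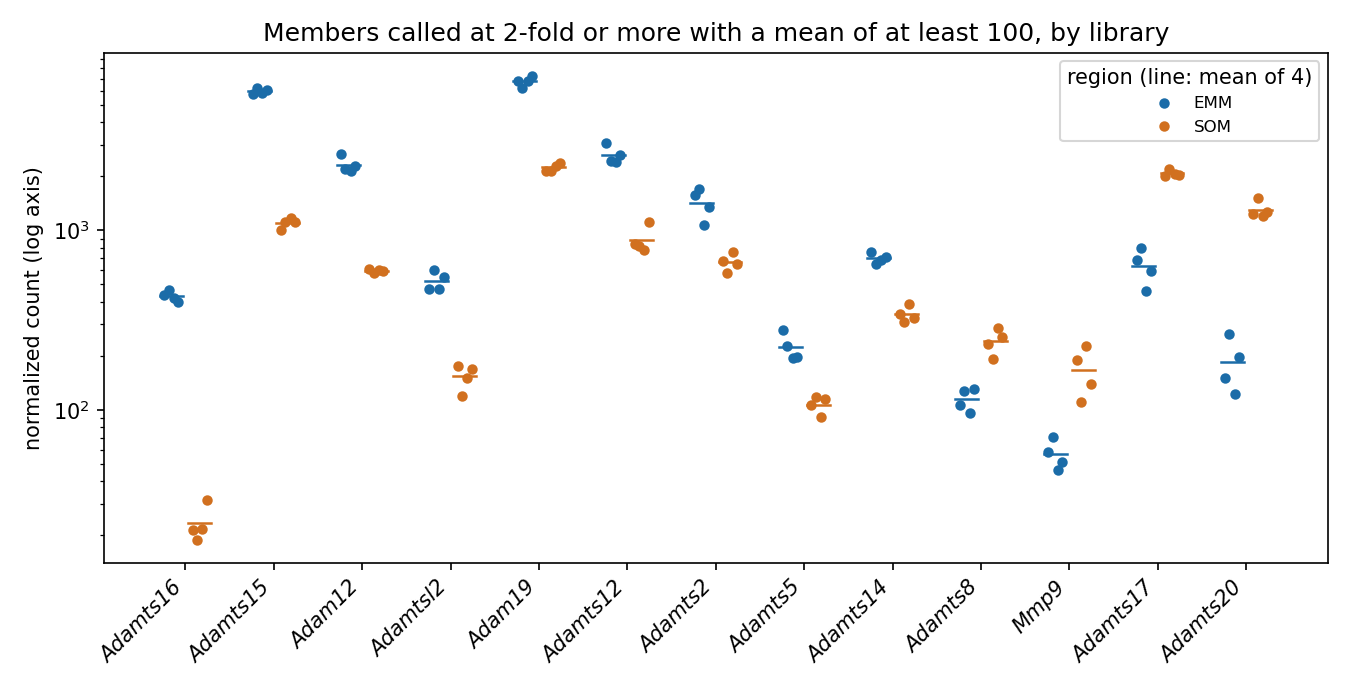
Level in each library, in normalized counts on a log axis, of the 13 members called at 2-fold or more with a mean of at least 100 normalized counts in the higher region. The EMM and SOM points of each gene do not overlap, and Adamts16 shows the widest gap, from 431 in EMM to 23.3 in SOM on the mean.

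The 33 members below the filter included every interstitial collagenase. Of these 33, 18 had no read in any library (6 Mmp, 11 Adam and Adamts13), which with 187223757 reads in all allows a level of up to 0.016 RPM (3 reads, counting error only), and 15 had some reads. The highest group mean among them was 8.07 normalized counts, for Adam3 in EMM. The 10 MMP genes of the cluster on chromosome 9, a 427 kb stretch (chr9:7272514-7699585), were all among them. They are Mmp13, Mmp12, Mmp1b, Mmp3, Mmp1a, Mmp10, Mmp8, Mmp27, Mmp20 and Mmp7, which include the collagenases, stromelysins and the macrophage elastase Mmp12. They gave 12 reads in EMM and 32 in SOM in all, and 6 of the 10 had no read. Mmp12 had no read, while the macrophage markers summed to 11533 or more in every EMM pool.

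Promoters are shown because the cluster genes, all below the filter, and the tested members differed in their letters just before the start. RefSeq (GRCm38.p6) gave a promoter for 53 of the 84 members, 58 promoters in all, and the 250 bases before the start were searched on both strands for 4 short motifs. The letters of the first, the TATA box, were TATAAA. For the factor AP-1 the letters were TGANTCA, where N is any base. The GC box was searched as GGGCGG. The letters bound by many homeobox factors were searched as TAATTA. Capitals mark the matches, and overlapping matches run together. Mmp13 (chr9:7272264-7272513, plus strand) and Mmp10 (chr9:7502092-7502341, plus strand) are from the cluster, Mmp14 (chr14:54431348-54431597, plus strand) and Timp1 (chrX:20869916-20870165, plus strand) are expressed in both regions, and Adamts20 (chr15:94404351-94404600, minus strand) and Adamts17 (chr7:66839485-66839734, plus strand) were higher in SOM. The RefSeq start of Adamts20 lies inside the GENCODE gene.
Mmp13: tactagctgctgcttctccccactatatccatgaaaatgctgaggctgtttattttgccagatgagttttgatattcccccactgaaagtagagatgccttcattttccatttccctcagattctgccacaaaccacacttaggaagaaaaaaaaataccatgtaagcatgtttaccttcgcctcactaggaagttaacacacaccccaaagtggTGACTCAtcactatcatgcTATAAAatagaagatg
Mmp10: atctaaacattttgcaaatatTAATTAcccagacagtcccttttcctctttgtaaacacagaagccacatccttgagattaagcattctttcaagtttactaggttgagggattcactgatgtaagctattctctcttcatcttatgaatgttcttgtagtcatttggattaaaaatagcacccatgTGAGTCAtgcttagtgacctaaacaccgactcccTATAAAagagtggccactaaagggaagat
Mmp14: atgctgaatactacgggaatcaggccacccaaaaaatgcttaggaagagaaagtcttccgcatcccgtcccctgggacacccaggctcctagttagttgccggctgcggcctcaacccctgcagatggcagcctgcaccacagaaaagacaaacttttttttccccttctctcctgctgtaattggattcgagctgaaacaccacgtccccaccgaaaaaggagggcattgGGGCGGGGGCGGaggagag
Timp1: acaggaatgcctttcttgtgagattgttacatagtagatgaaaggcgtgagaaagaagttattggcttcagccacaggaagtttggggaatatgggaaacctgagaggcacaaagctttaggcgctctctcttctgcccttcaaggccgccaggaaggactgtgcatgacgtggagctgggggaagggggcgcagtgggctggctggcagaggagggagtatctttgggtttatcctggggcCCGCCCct
Adamts20: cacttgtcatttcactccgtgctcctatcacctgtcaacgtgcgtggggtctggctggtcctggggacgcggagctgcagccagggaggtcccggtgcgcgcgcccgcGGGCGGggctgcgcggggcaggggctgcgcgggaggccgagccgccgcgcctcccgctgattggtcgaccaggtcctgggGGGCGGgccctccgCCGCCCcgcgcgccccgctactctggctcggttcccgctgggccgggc
Adamts17: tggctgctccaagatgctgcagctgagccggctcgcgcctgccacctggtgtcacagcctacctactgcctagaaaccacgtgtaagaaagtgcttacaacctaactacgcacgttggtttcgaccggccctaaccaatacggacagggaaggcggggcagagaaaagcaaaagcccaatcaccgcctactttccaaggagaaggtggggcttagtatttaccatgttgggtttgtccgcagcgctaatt

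Mmp13 has the AP-1 letters 35 bases and the TATA letters 16 bases before the start, and Mmp10 has them at 63 and 29 bases, with TAATTA at 229 bases. Mmp14 has GC boxes at 19 and 13 bases, Timp1 at 8 bases and Adamts20 at 142, 62 and 48 bases, while Adamts17 has none of the 4 motifs. In the 10 cluster genes, 8 had AP-1 letters, 7 had a TATA box and 0 had a GC box, against 0, 1 and 6 of the 8 other MMP genes matched. Of the 30 tested members with a promoter, 76.7% had a GC box, 6.67% a TATA box and 3.33% AP-1 letters. Of the 23 below the filter, 4.35% had a GC box, 47.8% a TATA box and 47.8% AP-1 letters. Over all 27025 genes with a promoter these shares were 35.4% (GC box), 14.3% (TATA box) and 7.82% (AP-1), and 5.65% had TAATTA. Over the 32851 single promoters they were 32.7%, 12.4%, 6.75% and 4.84%. The median GC content was 64.4% in tested members, 40.4% in those below the filter and 52.4% in all genes, and its part in the motif shares was not tested. Among tested members, GC boxes were found in 15 of 18 called higher in EMM and in 4 of 8 called higher in SOM. A match of letters is a description and not a binding site.

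**Figure D5:**
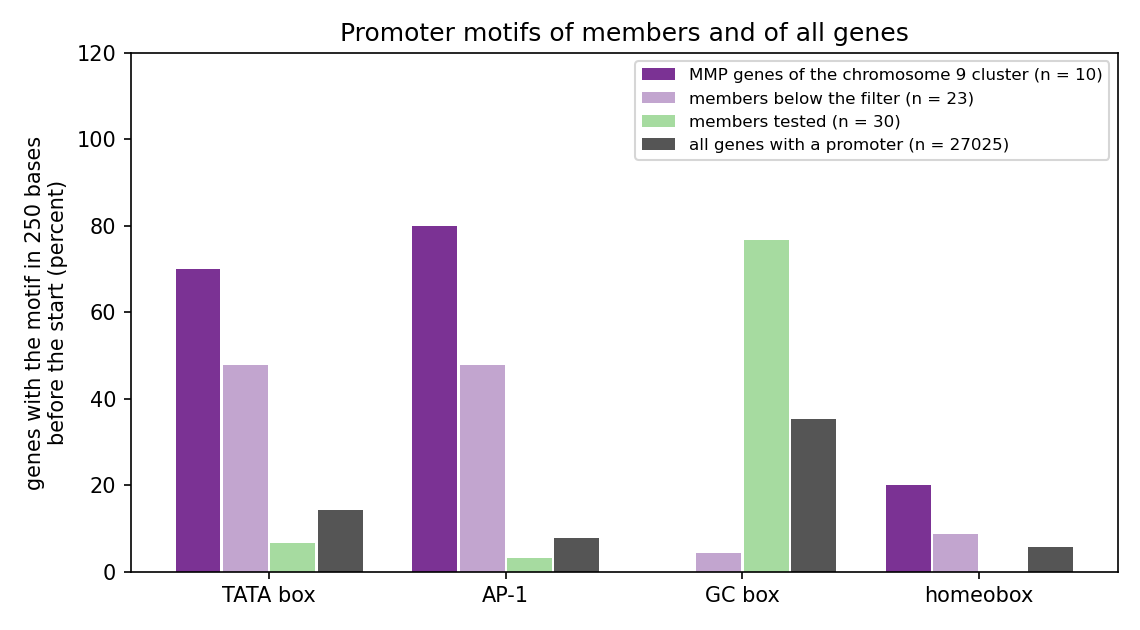
Percent of genes whose 250 bases before the start hold each motif, for the cluster MMP genes, all members below the filter (which include them), tested members and all genes with a RefSeq promoter. GC boxes stand at 76.7% in tested members and 4.35% below the filter, and TATA boxes at 6.67% and 47.8%.

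Genes that act beside these proteases were taken from lists by role. Of 7 tested genes of plasminogen activation, 2 were higher in EMM and 2 in SOM (28.6% each, median -0.06), against 36.1% and 36.0% of all genes tested. Plat, the tissue plasminogen activator, was 3254 ± 186 in EMM and 717 ± 121 in SOM (SD, n = 4), a difference of -2.19. Serpine2, which inhibits it, was 1429 ± 109 in EMM and 6588 ± 362 in SOM, a difference of 2.21. Activator and inhibitor thus differed in opposite directions. Anxa2, a plasminogen receptor subunit, and Plaur, the urokinase receptor, differed by -0.40 and 0.55.

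Among 12 MMP inhibitors and inducers outside the TIMP family, 10 were higher in EMM (83.3%) and 2 in SOM (16.7%, median -0.96). Of all genes tested, 36.1% were higher in EMM and 36.0% in SOM. Papln, called higher in EMM, was below 10 normalized counts in every SOM pool and passed the filter through EMM alone. Reck, the membrane-anchored MMP inhibitor, was 5091 ± 254 in EMM and 2401 ± 166 in SOM, a difference of -1.09. Of the testicans, proteoglycans that affect MMP activation, Spock3 differed by -3.16 and Spock1 by 4.22. Spock1 was at 6.13, 10.8, 7.32 and 5.39 normalized counts in EMM and 136, 155, 139 and 182 in SOM. Of the 2 procollagen C-proteinase enhancers, Pcolce2 was at 10.6 ± 5.12 in EMM and 75.8 ± 4.51 in SOM, a difference of 2.84. The far more abundant Pcolce, named after its values were seen, was at 11725 ± 380 in EMM and 5647 ± 450 in SOM, a difference of -1.06. Proprotein convertases cut the inhibitory domain off many of these enzymes. Of 7 tested, 4 were higher in EMM (57.1%, against 36.1%) and 2 in SOM (28.6%, against 36.0%), with a median of -0.26. Pcsk5 differed by -1.21, Mbtps1 by -0.35, Pcsk6 by 0.88 and Pcsk4 by 1.79.

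The shares of each list below are read against all genes tested, of which 36.1% were higher in EMM and 36.0% in SOM. Of 4 astacin and pappalysin metalloproteinases, 2 were higher in EMM (50%; Tll1 at -1.68, Pappa2 at -0.63) and 1 in SOM (25%). That 1 was Bmp1, the procollagen C-proteinase, at 5645 ± 220 in EMM and 7085 ± 442 in SOM, a difference of 0.33. The N-propeptidases and Bmp1 therefore differed in opposite directions, while Tll1 of the same list and the enhancer Pcolce were higher in EMM. Of 14 cysteine and serine proteases and cystatins, 12 were higher in EMM (85.7%) and 2 were not called (median -1.38), and the lowest adjusted p were those of Htra1 (-3.90) and Ctsb (-1.13). Among 8 partners of Adam10 and Adam17, 6 were higher in EMM (75%) and 2 were not called (median -0.17), with Tspan17 at -0.85 and Rhbdf2 at -0.59. Of 15 shed ligands and receptors, 10 were higher in EMM (66.7%) and 3 in SOM (20%, median -0.23). Jag1, a Notch ligand, differed by -1.90 and Il6ra by -2.35, while Tgfa, an EGF receptor ligand, differed by 2.88 and L1cam by 0.65. Of 13 proteoglycan and microfibril genes, 9 were higher in EMM (69.2%) and 3 in SOM (23.1%, median -1.02). Bgn, or biglycan, differed by -1.63 and Ltbp1 by 0.68. Acan, or aggrecan, differed by 2.75, with SOM pools at 749, 115, 313 and 601 normalized counts.

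Markers of other cell types differed between the regions along with the members. Of all genes tested, 36.1% were higher in EMM and 36.0% in SOM. Pericyte and smooth muscle markers were higher in EMM in 9 of 10 (90%, sum 61200 to 69064 in EMM and 10364 to 12293 in SOM). The other, Cspg4, was higher in SOM (0.33). Meningeal markers were higher in EMM in 6 of 8 tested (75%, sum 34222 to 36744 in EMM and 12379 to 14344 in SOM). Endothelial markers were higher in EMM in 7 of 10 (70%, sum 19578 to 25090 in EMM and 14522 to 17164 in SOM), and Pecam1 was higher in SOM (0.24). Skeletal muscle markers were higher in EMM in 5 of 6 tested (83.3%), with Myf5 at 0. Below the filter, the mean of Myog was 0.256 in EMM and 7.13 in SOM, and that of Myod1 was 0 and 1.16. Osteoblast markers were higher in SOM in 7 of 9 tested (77.8%), and Col1a1 and Spp1 were the 2 called higher in EMM. The osteoblast sum was higher in EMM (331314 to 390397 in EMM and 98368 to 130701 in SOM), but it was nearly all Col1a1. Col1a1 had a mean of 366350 in EMM and 107732 in SOM. Runx2, the next highest of the list, had a mean of 1668 in EMM and 2632 in SOM. Cartilage markers were higher in SOM in 5 of 7 (71.4%), while Hapln1 was higher in EMM (-1.93). The cartilage sums overlapped (31087 to 32336 in EMM and 32193 to 54725 in SOM). Surface ectoderm markers summed to 766 to 1047 in EMM and 248 to 463 in SOM, with 2 of 7 (28.6%) called higher in EMM. These 2 made up most of the EMM sum: Krt8 (mean 333 in EMM and 43.9 in SOM) and Cdh1 (331 and 54.4). The other tested markers, Krt5, Krt14, Krt18, Epcam and Trp63, were not called. Among them Krt5 was at 3.07, 192, 55.4 and 8.08 normalized counts in EMM pools 1 to 4 and at 55.4, 46.2, 43.4 and 140 in SOM pools 1 to 4. Without EMM pools 2 and 3 and SOM pool 4, the counts of members were again 31 higher in EMM and 11 higher in SOM. The part of these cell types in the protease and inhibitor levels was not tested.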

How the data were processed

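RNA from 4 EMM and 4 SOM pools was sequenced (Illumina TruSeq). The authors deposited 1 table of 23420 genes with a signal per library, here called normalized counts, beside their own log2 fold change with its error, test score (Wald statistic) and p-value, per the file headers. STAR, bcl2fastq and DESeq2 and the build mm10 are named per the submitters' processing notes; tool versions, annotation and strand use in counting: not given in the sources used here. Genes sharing exonic bases (13 tested members) may share reads. Whole reads were recovered for 100% of values (within 1e-06 of 1 read), and their totals gave the depth.

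Values were tested as log2(normalized count + 1) with limma 3.58.1 (trend, robust; R 4.3.3) over the 14249 genes with at least 10 normalized counts in at least 4 of 8 libraries, with Benjamini-Hochberg adjustment at 0.05. P-values measure the spread between pools. The method was tested on simulated data in which far fewer genes differed than were called here. That test does not show how the fit behaves on data like these. edgeR 4.0.16 and DESeq2 1.42.0 on recovered reads, other scalings, filters, a pseudocount of 5 and omitted replicates were alternatives. Every member could be named; values in every library were planned for members called at 2-fold or more with a mean of at least 100, the TIMPs and each family's leading gene per kilobase, and other members' library values were chosen after they were seen. Of each related list, the 2 genes per direction with the lowest adjusted p were named. Members and lists were chosen with earlier results of these data known. Exon lengths and positions are from GENCODE M21 (GRCm38), which matched all 84 members.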

Additional observations from a re-analysis of the deposited data

Results flagged for a closer look

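In 6 of 102 groups of 4 pools checked, the highest or lowest pool stood apart from the others by Dixon's test, and chance flags about 1 in 20 groups. Adamts1 was at 1422 normalized counts in SOM replicate 4 and at 591 to 657 in the other SOM pools. Adamts10 was at 4487 in SOM replicate 3 and at 3867 to 3968 in the others. SOM replicate 2 had the highest Adamts20, 1507 against 1209 to 1259, and the highest Adamts6, 346 against 320 to 321. Mmp19 was at 26 in SOM replicate 4 and at 21.4 to 21.7 in the others. Timp3 was at 2785 in EMM replicate 2, below the 3344 to 3421 of the other EMM pools.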

How the results depend on the processing

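The 31 members higher in EMM and 11 higher in SOM became 30 to 32 and 10 to 13 under the alternatives run. Leaving out 1 replicate gave 31 to 32 and 10 to 12, and leaving out EMM replicates 2 and 3 and SOM replicate 4, chosen after seeing the data, gave 31 and 11. No pairing by replicate number was shown: the deviations of same-numbered pools correlated at 0.126, 0.00993, 0.0419 and -0.0199, and whether they share embryos is not given. The fit with a replicate block gave 31 and 12, and 10249 in place of 10278 genes called. edgeR called 31 and 12 members, DESeq2 31 and 11.

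The sign changed in 2 uncalled members. Adamtsl5 was at 0.05 with edgeR, 0.02 with DESeq2, 0.00 without EMM replicate 1, 0.08 without SOM replicate 1, 0.09 without SOM replicate 4 and 0.01 without the 3 libraries named above, with -0.32 without SOM replicate 3 as its lowest value. Mmp17 was at -0.06 without EMM replicate 2 and at most at 0.21, without EMM replicate 3. The cause was not tested. Depth limits the genes near 3 reads.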
